A study of Mus musculus with 16 samples.

Results

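The interleukin-1 genes and their receptors were followed in mouse neutrophils before and after polymicrobial sepsis. The set holds 8 of the 49315 genes in each count file, chosen by family membership with no threshold on a measured value. They are the agonists Il1a and Il1b, the receptor antagonist Il1rn, the decoy receptor Il1r2, the signalling receptor Il1r1, the accessory chain Il1rap, the cytokine Il18 and the accessory chain of its receptor, Il18rap. The cells came from blood or lung and were gated on the surface markers CD45.2, CD11b and Ly6G. The donors were male mice aged 8 to 12 weeks, either WT or αD KO, a germline knockout strain for the integrin chain αD (CD11d, encoded by Itgad). Mice were either untreated (0h, the baseline) or had undergone cecal ligation and puncture (CLP) 12 hours earlier, an operation in which the cecum is tied and pierced so that gut bacteria enter the abdomen. The 8 groups of genotype, tissue and time held 2 samples and 3 libraries each, 24 libraries in all. Sample 1 of every group had 2 count files, called libraries 1a and 1b here, and sample 2 had 1 file, called library 2. The labels do not say whether libraries come from separate mice, or whether cells of several mice were pooled, so p-values measure the spread between these libraries, which may be technical.

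Interleukin-1α and interleukin-1β are both agonists of the same receptor. Interleukin-1α is active as it is made, while interleukin-1β and interleukin-18 are made as precursors that are cut, mainly by caspase-1 within an inflammasome. The signalling receptor IL-1R1 joins the accessory chain IL-1RAP and passes the signal through MyD88 and IRAK kinases to NF-κB. The antagonist, encoded by Il1rn, occupies IL-1R1 without recruiting the accessory chain. The decoy receptor IL-1R2, which neutrophils are known to carry and shed, binds the agonists but has no signalling domain. Neutrophils are a known source of interleukin-1β in bacterial infection.

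Both agonist genes lie on chromosome 2 on the minus strand (GRCm38), Il1a from 129299610 to 129309972 and Il1b from 129364570 to 129371139. Il1rn is on the same chromosome from 24336853 to 24351494. The decoy gene Il1r2 (40074079 to 40125231), Il1r1 (40225080 to 40317257) and Il18rap (40515362 to 40551705) sit in 1 receptor cluster on chromosome 1, with Il1rl2, Il1rl1 and Il18r1 between Il1r1 and Il18rap. Il1rap is on chromosome 16 and Il18 on chromosome 9. The promoters of the neighbouring agonists are shown because Il1a and Il1b went in opposite directions in WT blood after CLP, and that of Il1r2 because it rose most widely. Each sequence is the 250 bases before a RefSeq start site (GRCm38.p6), 5′ to 3′ on the strand of the gene, at chr2:129309973-129310222 (minus), chr2:129371140-129371389 (minus) and chr1:40085843-40086092 (plus). Capitals mark a match to the TATA box (TATAAA, searched on the strand of the gene) or to the AP-1 motif (TGANTCA, either strand).
Il1a: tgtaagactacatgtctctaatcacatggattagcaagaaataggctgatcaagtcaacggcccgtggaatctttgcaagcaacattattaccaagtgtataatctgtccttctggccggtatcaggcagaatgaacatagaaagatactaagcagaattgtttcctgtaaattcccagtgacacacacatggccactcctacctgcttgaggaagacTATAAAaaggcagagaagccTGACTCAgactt
Il1b: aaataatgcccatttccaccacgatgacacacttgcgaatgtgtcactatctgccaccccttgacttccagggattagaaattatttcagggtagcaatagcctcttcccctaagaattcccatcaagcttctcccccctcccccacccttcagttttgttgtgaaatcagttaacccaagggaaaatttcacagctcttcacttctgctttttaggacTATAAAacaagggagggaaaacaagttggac
Il1r2: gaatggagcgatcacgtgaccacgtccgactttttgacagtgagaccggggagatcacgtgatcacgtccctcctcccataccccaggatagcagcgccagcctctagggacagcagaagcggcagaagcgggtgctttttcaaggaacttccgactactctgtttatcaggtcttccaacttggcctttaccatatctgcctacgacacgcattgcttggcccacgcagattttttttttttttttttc
A TATA box began 32 bases before the start site of Il1a and 31 bases before that of Il1b. These were 2 of the 11 promoters listed for the 8 genes, and 7.59% of all 32851 promoters hold these letters. AP-1 letters, present in 6.75% of all promoters, stood 12 bases before the Il1a start site and in 1 promoter of Il1rn. The Il1r2 window held none of the motifs searched, which also included NF-κB (GGG and CC with 5 bases of any kind between them, 45.8% of all promoters), C/EBP (TTGCNNAA, 9.56%) and the glucocorticoid receptor (GNACA and TGTNC with 3 bases between them, 0.387%), all on either strand. The RefSeq start site of Il1r2 is not the first base of the gene in the annotation used for counting.

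Libraries held 5753476 to 29984954 counts. The libraries 1b detected 29162 to 38844 genes against 17132 to 32666 in the other libraries, and in 7 of 8 groups library 1b was the lowest for Il1rn and for Il1r2 and the highest for Il1r1. Itgad, the deleted gene, went against the genotype label: it was 12.6 to 96.1 CPM (counts scaled to a common library size, TMM) in the 12 libraries labelled αD KO and 0.0522 to 4.08 CPM in the 12 labelled WT. Which part of Itgad is deleted is not given in the sources used here, so αD KO and WT are used below as the names of the labels. In lung, some libraries labelled αD KO did not lie with their labelled time. On an axis of the 1338 genes other than these 8 that passed the test in WT lung, with 0 at the mean of WT 0h and 1 at the mean of WT 12 hours, the αD KO 0h libraries 1a, 1b and 2 lay at 0.15, 0.08 and 1.02. The αD KO 12-hour libraries 1a, 1b and 2 lay at 0.09, 0.86 and 0.19. WT lung libraries lay at -0.04 to 0.09 at 0h and at 0.67 to 1.21 at 12 hours. Neutrophil markers were present in every library, with S100a8 at 11208 to 87597 CPM, Itgam at 227 to 1330.1 CPM and Ly6g at 23.3 to 574 CPM. Markers of other cells were also found, with the sum of 16 monocyte and macrophage genes (led by Csf1r) at 555 to 1999 CPM, of 17 T and NK cell genes (led by Cd3d) at 11.5 to 618 CPM, and of 12 B cell genes (led by Ighm) at 33.3 to 1622 CPM. The sum of 8 erythroid genes (led by Hba-a1) was 23.6 to 8878 CPM. In bulk RNA, fewer cells of a type and less RNA per cell cannot be told apart.

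Il1b was among the most abundant transcripts of these cells at the baseline. Per transcript length (TPM), the mean was 6516 ± 1646 (SD, n = 3 libraries of 2 samples) in WT blood and 11519 ± 2594 in WT lung at 0h, rank 16 and rank 10 of all genes. Il1r2 followed at 911 ± 393 TPM in WT blood and 1218 ± 458 TPM in WT lung, and Il1rn at 320 ± 143 and 384 ± 121 TPM. The ranges of Il1b, Il1r2 and Il1rn did not overlap in either tissue of WT mice at 0h, so their order held in each library. The accessory chains were lower, with Il18rap at 75.6 ± 25.0 TPM and Il1rap at 56.8 ± 9.61 TPM in WT blood, and these 2 were not separated. Il18 was at 18.2 ± 8.56 TPM in WT blood. Il1r1, the signalling receptor, was the rarest together with Il1a, at 1.58 ± 2.43 TPM and 0.893 ± 0.979 TPM. Il1r1 had 0 to 77 counts per library and 715 counts over all 24 libraries. WT blood 0h library 1a had 0 of 29433699 counts for it, which allows up to 3 counts (counting error only). After CLP the order changed in blood. In WT blood at 12 hours Il1r2 led at 3576 ± 555 TPM, ahead of Il1b at 523 ± 317 TPM with no overlap, and in αD KO blood Il1r2 was at 5637 ± 4036 TPM and Il1b at 1153 ± 382 TPM, with overlap. In WT lung at 12 hours Il1b (7824 ± 5879 TPM) and Il1r2 (6369 ± 4333 TPM) overlapped.

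**Figure D1:**
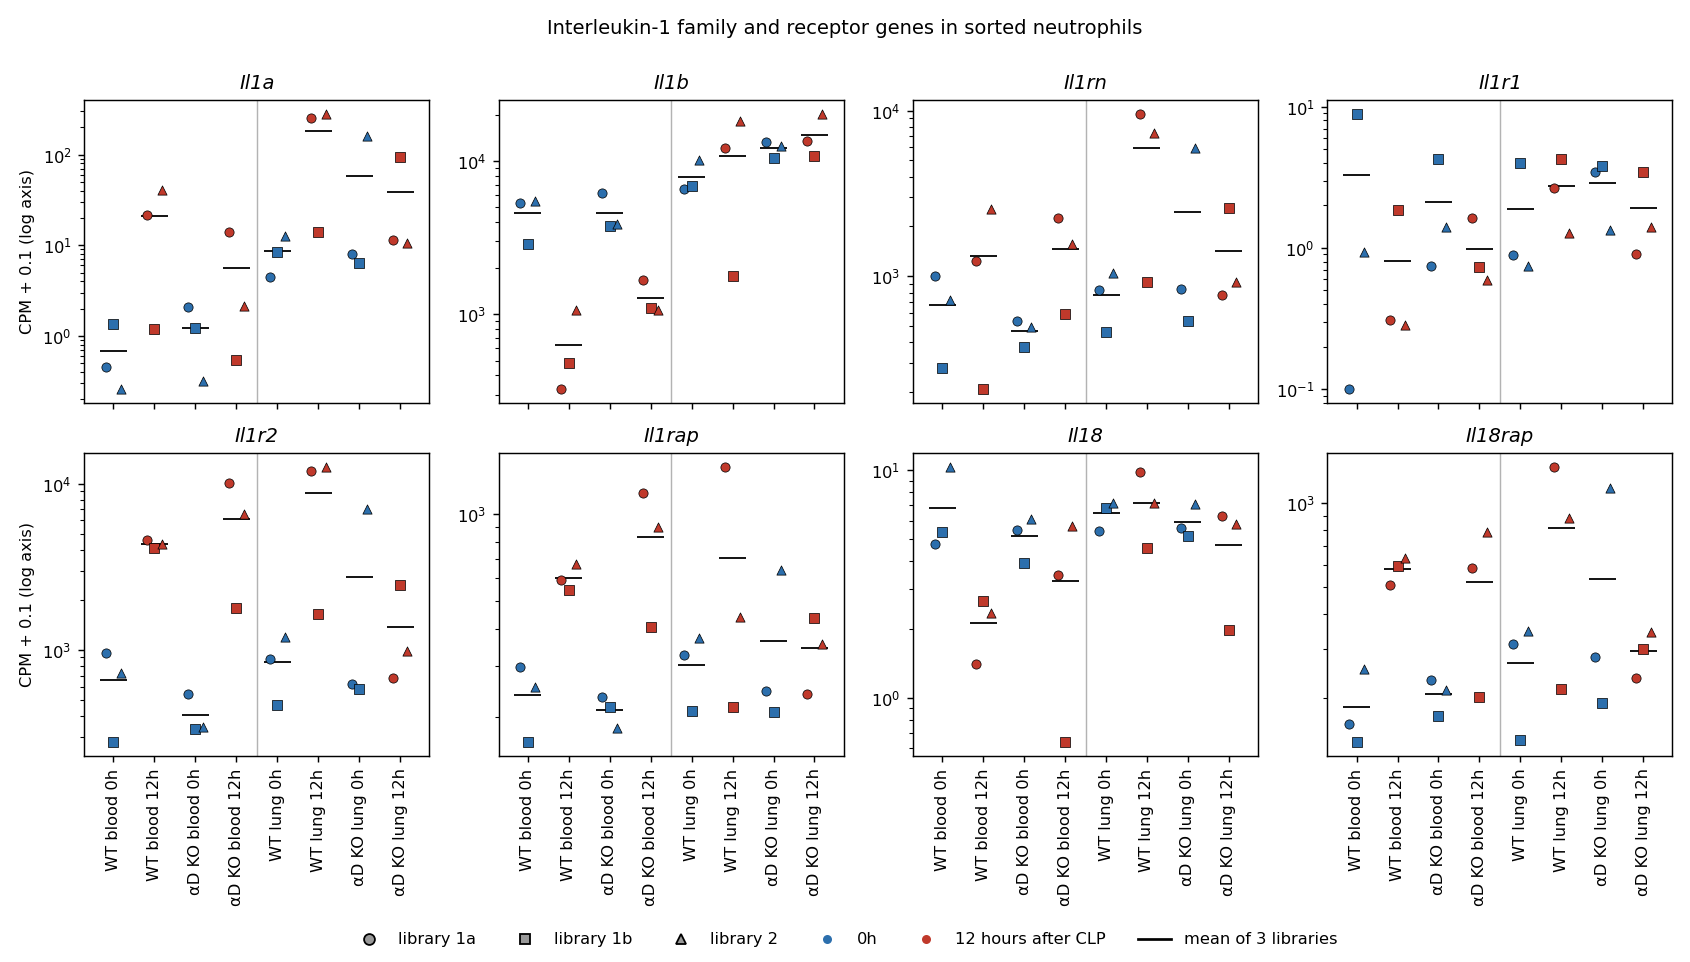
Level of each of the 8 genes in the 24 libraries, as CPM + 0.1 on a log axis, by genotype label, tissue and time; symbols give the library, blue 0h, red 12 hours after CLP, and bars the mean of 3 libraries. Il1b falls in blood and stays between 1767 and 20296 CPM in lung, while all 3 libraries of Il1r2 at 12 hours lie above those at 0h in WT blood, αD KO blood and WT lung.

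In WT blood, Il1b fell after CLP while the decoy receptor, the accessory chains and Il1a rose. Il1b was 5354, 2858 and 5513 CPM at 0h (libraries 1a, 1b and 2) and 325, 484 and 1075.8 CPM at 12 hours. Every 12-hour library was below every 0h library, and the fall was 7.54-fold (log2 fold change -2.91 ± 0.59 SE, adjusted p = 0.0195, edgeR quasi-likelihood test, adjusted over 14625 genes). Il1r2 was 958, 279 and 727 CPM at 0h and 4568, 4090.4 and 4341 CPM at 12 hours. The 12-hour libraries were close together and all above 0h, a rise of 6.34-fold (log2 fold change 2.67 ± 0.53, adjusted p = 0.0187). Il18rap, which with IL-18R1 forms the interleukin-18 receptor, was 161, 138 and 253 CPM at 0h and 506, 593 and 634 CPM at 12 hours, without overlap (1.60 ± 0.36, adjusted p = 0.0268). Il1rap was 296, 163 and 253 CPM at 0h and 591, 546 and 672 CPM at 12 hours, also without overlap (1.29 ± 0.35, adjusted p = 0.0491). Il1a was 0.358, 1.25 and 0.160 CPM at 0h and 21.2, 1.09 and 40.2 CPM at 12 hours. Library 1b did not share its rise, so the groups overlapped although the test passed (5.29 ± 1.31, adjusted p = 0.0354). Libraries of the same number shared part of their deviation here, and in a fit that blocks on that number Il1a did not pass (adjusted p = 0.0625) while the other 4 did.

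Il1rn, the antagonist, did not pass in WT blood. It was 1009.7, 281 and 718 CPM at 0h and 1246, 209 and 2550.1 CPM at 12 hours, with library 1b lowest at both times (0.93 ± 0.84, adjusted p = 0.506, and 0.06 to 1.38 with 1 library left out). Il18 was 4.62, 5.24 and 10.2 CPM at 0h and 1.31, 2.56 and 2.25 CPM at 12 hours, without overlap, and missed the threshold (-1.76 ± 0.55, adjusted p = 0.0719). Altogether 5 of 8 genes were called in WT blood (adjusted p under 0.05 and absolute log2 fold change over 1), 4 higher and 1 lower, where 13.5% of all genes tested were called, 7.75% higher and 5.75% lower. The groups did not overlap for 5 of the 8, against 38.0% of all genes tested. The median log2 fold change was 1.11 over the 8 and -0.154 over all genes. No gene of the 8 was called when the 0h library 1a, the 0h library 2, the 12-hour library 1a or the 12-hour library 2 was left out, and the calls over all genes then fell from 1975 to 150, 46, 19 and 2. Without the 0h library 1b 6 were called, and without the 12-hour library 1b 3, when 18.4% and 9.9% of all genes were. Neutrophil markers and transcripts of other cells moved with this comparison. The 8 neutrophil markers summed to 36631 to 45844 CPM at 0h and 116152 to 175956 CPM at 12 hours, with 5 of 8 higher and 1 lower. The summed 12 B cell markers were 359 to 1215 CPM at 0h and 48.7 to 248 CPM at 12 hours, with 1 of 12 tested lower. The 9 platelet markers were 72.3 to 157 and 6.87 to 30.4 CPM, with 4 of 9 lower. The 17 T and NK cell markers were 30.8 to 42.2 and 17.4 to 18.3 CPM, with none of 9 called. The 7 eosinophil markers were 43.6 to 70.2 and 24.04 to 26.5 CPM, with 1 of 4 higher and 2 lower. The 16 monocyte and macrophage markers overlapped at 686 to 1492 and 668 to 1099 CPM, with 1 of 13 tested higher and 2 lower. Of these lists, Prg2 of the eosinophil markers was at 0 in every 12-hour library, and their part in the result was not tested.

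In αD KO blood the same 12-hour comparison gave Il1r2 and Il1rap higher and Il1b lower. Il1r2 was 543, 337 and 343 CPM at 0h and 10094, 1774 and 6544 CPM at 12 hours. All 12-hour libraries were higher, library 1b least, and the fold was 14.6 (log2 fold change 3.87 ± 0.63, adjusted p = 0.0115). Il1b was 6174, 3769.6 and 3859.7 CPM at 0h and 1688, 1094 and 1064 CPM at 12 hours, without overlap, a fall of 3.71-fold (-1.89 ± 0.35, adjusted p = 0.0188). Il1rap was 234, 217 and 182 CPM at 0h and 1181, 409 and 905 CPM at 12 hours, without overlap (1.92 ± 0.41, adjusted p = 0.0308). Il1rn was 541, 377 and 493 CPM at 0h and 2253, 594 and 1569.9 CPM at 12 hours. Its groups did not overlap but the test missed the threshold (1.60 ± 0.47, adjusted p = 0.0681). Il18rap (1.29 ± 0.46, adjusted p = 0.115), Il1a (2.25 ± 1.23, adjusted p = 0.275, and 0.17 to 3.12 with 1 library left out) and Il18 (-0.71 ± 0.74, adjusted p = 0.568) overlapped between times. Il1a reached 13.9 CPM in 12-hour library 1a but 0.450 and 2.03 CPM in libraries 1b and 2. Calls were made for 3 of 8 genes, 2 higher and 1 lower, against 8.75% of all genes tested (3.75% higher and 4.99% lower), and 4 of 8 did not overlap, against 33.3%. Leaving out the 0h library 1a, the 0h library 2 or the 12-hour library 2 ended all 3 calls, and the calls over all genes then fell from 1238 to 74, 571 and 167. Without the 0h library 1b, the 12-hour library 1a or the 12-hour library 1b, 2, 1 and 5 genes were called, when 4.67%, 1.54% and 8.74% of all genes were. Neutrophil markers were 39357 to 55765 CPM at 0h and 97886 to 143089 CPM at 12 hours, with 3 of 8 higher and 1 lower. Monocyte and macrophage markers were 823 to 1999 CPM at 0h and 555 to 745 CPM at 12 hours, with 5 of 14 tested lower, and B cell markers 383 to 1622 and 39.8 to 128 CPM, with 4 of 12 lower. Eosinophil markers were 64.1 to 178 and 6.72 to 12.95 CPM, with 2 of 4 lower, platelet markers 40.6 to 734 and 7.55 to 43.2 CPM, with 4 of 9 lower, and T and NK cell markers 22.7 to 618 and 11.5 to 19.6 CPM, with 3 of 10 lower. For each of these lists of other cells the highest 0h sum was in library 2. T and NK cell markers were at 42.0 and 22.7 CPM in 0h libraries 1a and 1b. The part of these in the result was not tested. The interaction of genotype label and time in blood was called for none of the 8 (edgeR, 0 with an unadjusted p under 0.05, DESeq2 0 called). It was called for none of 19792 genes tested (0.0%), so these counts do not show that the labels respond alike. The difference for Il1b was 1.15 ± 0.82 on the log2 scale.

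**Figure D2:**
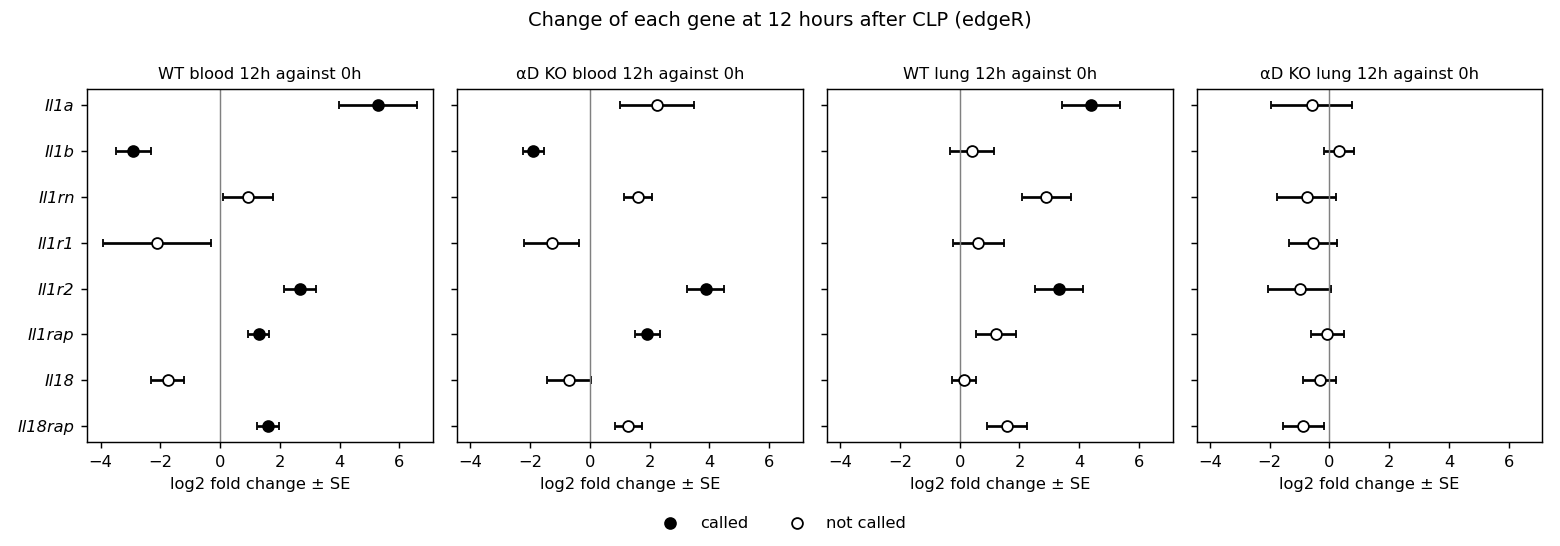
Log2 fold change (12 hours against 0h) with its SE for each of the 8 genes in the 4 combinations of genotype label and tissue (edgeR, 3 against 3 libraries); filled points passed the test. Il1r2 is filled in 3 of the 4 panels and Il1b lies left of 0 in both blood panels, while no point is filled in αD KO lung.

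The balance of antagonist to agonist was measured within each library as the log2 ratio of Il1rn to Il1b counts per length, with 0.5 added to each count. In WT blood it was -3.94, -4.88 and -4.48 at 0h and 0.40, -2.75 and -0.29 at 12 hours. In αD KO blood it was -5.05, -4.86 and -4.50 at 0h and -1.12, -2.42 and -0.98 at 12 hours. All 6 libraries at 12 hours were above all 6 at 0h, a mean difference of 3.43 (two-sided exact permutation test within genotype labels, p = 0.005, the smallest that 400 arrangements allow, adjusted p = 0.02 over 4 ratios). With the 2 files of each sample 1 summed, so that each sample counts once, the difference was 3.67 (exact permutation test, adjusted p = 0.111). Its 36 arrangements are too few for any difference to pass, so this test cannot decide. Only WT library 1a at 12 hours had more Il1rn than Il1b per length. In WT lung the ratio was -4.54, -5.44 and -4.82 at 0h and -1.88, -2.48 and -2.86 at 12 hours, without overlap. In αD KO lung it was -5.51, -5.82 and -2.62 at 0h and -5.69, -3.60 and -5.98 at 12 hours. Over both labels the lung difference was 1.04 (exact permutation test, p = 0.235, adjusted p = 0.295), with 2.53 in WT and -0.44 in αD KO. Without αD KO 0h library 2 it was 1.55 (exact permutation test, adjusted p = 0.05). The log2 ratio of decoy to signalling receptor, Il1r2 to Il1r1, was 6.72 and 11.46 in libraries 1b and 2 of WT blood at 0h and 12.91 to 16.05 at 12 hours, and 8.07 to 11.41 and 13.10 to 15.35 in αD KO blood. Library 1a of WT blood at 0h had no Il1r1 count, so its value is set by the added 0.5. With 3 counts in place of 0 its ratio is at least 14.86, within the range of WT blood at 12 hours. The difference with it, 3.82, did not pass after adjustment (exact permutation test, p = 0.045, adjusted p = 0.09), and the difference passed only when that library, which goes against the rise, was left out (5.21, exact permutation test, adjusted p = 0.02). In lung the difference was 1.30 (exact permutation test, p = 0.295, adjusted p = 0.295), and 2.14 without αD KO 0h library 2 (exact permutation test, adjusted p = 0.05).

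**Figure D3:**
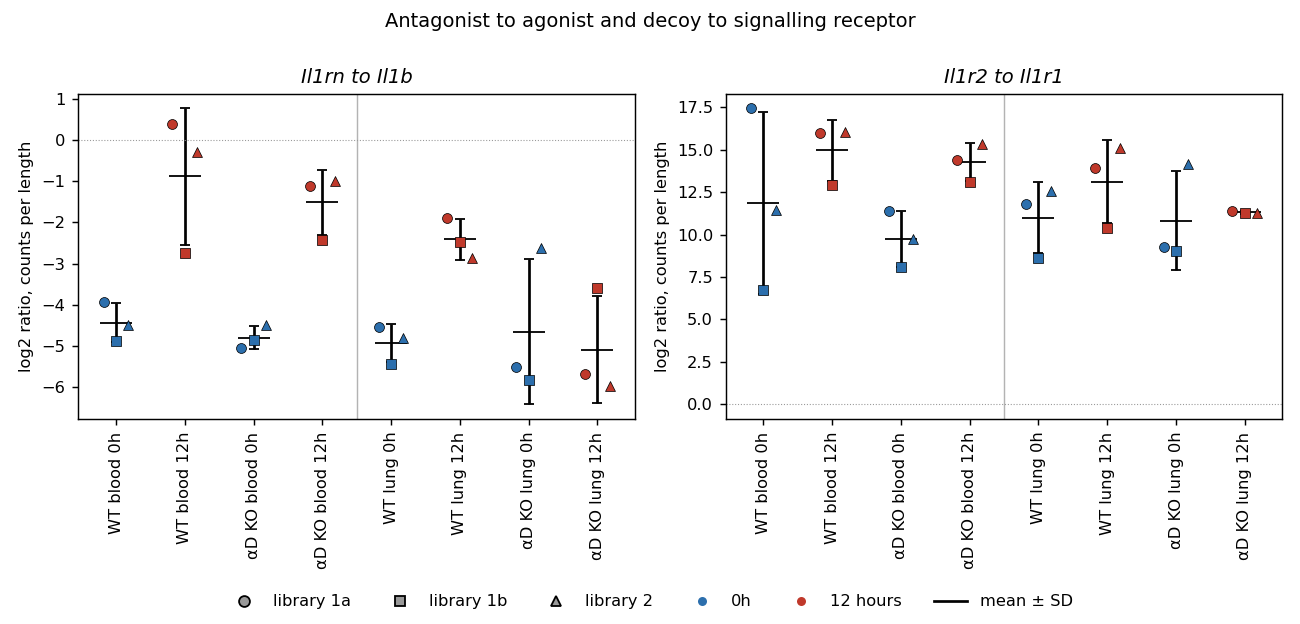
Log2 ratio of Il1rn to Il1b (left) and of Il1r2 to Il1r1 (right), counts per length with 0.5 added, in each library, with mean and SD of 3 libraries per group. In blood the Il1rn to Il1b ratio lies between -5.05 and -3.94 at 0h and between -2.75 and 0.40 at 12 hours. The highest Il1r2 to Il1r1 point, in WT blood at 0h, is the library with no Il1r1 count.

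In WT lung after CLP, Il1a and Il1r2 rose and Il1b did not pass the test. Il1a was 4.34, 8.27 and 12.7 CPM at 0h and 252, 14.1 and 279 CPM at 12 hours. Libraries 1a and 2 were far above 0h and library 1b only just above it, a fold of 21.1 (log2 fold change 4.40 ± 0.98, adjusted p = 0.0322). Il1r2 was 882, 464 and 1203 CPM at 0h and 11915, 1646 and 12575 CPM at 12 hours, without overlap and with library 1b lowest at both times, a fold of 9.96 (3.32 ± 0.80, adjusted p = 0.0411). Il1rn was 823, 460 and 1043.7 CPM at 0h and 9526, 922 and 7323 CPM at 12 hours. Library 1b lay within the 0h range and the test missed the threshold (2.90 ± 0.82, adjusted p = 0.0623). Il18rap was 311, 141 and 346 CPM at 0h and 1344, 215 and 880 CPM at 12 hours, with the same overlap of library 1b (1.58 ± 0.66, adjusted p = 0.172). Il1b was 6583, 6852 and 10191 CPM at 0h and 12094, 1767 and 18373 CPM at 12 hours, so the 12-hour libraries lay on both sides of the baseline (0.41 ± 0.74, adjusted p = 0.782). Il1rap was 326, 209 and 373 CPM at 0h and 1454, 216 and 441 CPM at 12 hours, with overlap. The count was 2 of 8 genes, both higher, against 9.02% of all genes tested (5.24% higher). Without the 12-hour library 1b 4 genes were called (Il1a, Il1r2, Il1rn and Il18rap), when 25.3% of all genes were, and without any of the other 5 libraries none, when between 0 and 769 genes of the whole table were called. Neutrophil markers were 41595 to 49976 CPM at 0h and 65123 to 169255 CPM at 12 hours, with 1 of 8 higher and 1 lower. B cell markers were 511 to 784 CPM at 0h and 33.3 to 104 CPM at 12 hours, with 4 of 12 lower, and 23 markers of lung structural cells 94.1 to 386 and 201 to 572 CPM. Eosinophil markers were 80.3 to 124 and 4.40 to 29.3 CPM, with 2 of 4 lower, T and NK cell markers 22.6 to 31.0 and 12.9 to 20.5 CPM, with none called, and monocyte and macrophage markers 820 to 1264 and 653 to 1292 CPM, with 1 of 12 higher and 2 lower. Their part in the result was not tested.

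In αD KO lung no gene of the 8 passed the test between the labelled times (edgeR, 0 called, 0 with an unadjusted p under 0.05, DESeq2 0 called), and none of 17939 genes tested was called (0.0%). Il1r2 was 622, 579 and 7031 CPM at 0h and 675, 2462 and 983 CPM at 12 hours. Library 2 at 0h was the highest of all 6 and library 1b at 12 hours came next, as on the axis of the other genes (log2 fold change -1.0 ± 1.06, adjusted p = 1.0). Without 0h library 2 the value was 1.21. Il1rn was 844, 541 and 5922 CPM at 0h and 768, 2583 and 931 CPM at 12 hours, and Il1a 7.99, 6.23 and 160 CPM at 0h and 11.3, 92.7 and 10.4 CPM at 12 hours. The same 2 libraries were the highest for both genes. Without 0h library 2 the log2 fold change of Il1rn went from -0.76 to 1.04 and that of Il1a from -0.60 to 2.35, neither called. Il18rap followed at 0h (281, 192 and 1133 CPM) but not at 12 hours (236, 300 and 343 CPM). Il1b was 13243, 10507 and 12549 CPM at 0h and 13620.5, 10802 and 20296 CPM at 12 hours, and its level did not follow the axis (0.32 ± 0.49). Itgad was 16.3 CPM in αD KO 0h library 2 and 17.5 CPM in 12-hour library 1b, against 53.4 to 96.1 CPM in the other αD KO lung libraries. In αD KO blood it was 49.3 to 92.2 CPM at 0h and 12.6 to 18.2 CPM at 12 hours. Some marker lists separated the same 2 libraries and others did not. B cell markers summed to 51.0 and 80.9 CPM in them against 344 to 521 CPM in the other 4, and eosinophil markers to 6.10 and 14.7 CPM against 70.9 to 91.8 CPM. T and NK cell and platelet markers were also lower in both than in the other 4, and neutrophil markers higher. Monocyte and macrophage markers were not separated (600 and 866 against 793 to 1202 CPM), nor were lung structural, erythroid, and basophil and mast cell markers. Why these libraries stand apart was not tested.

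**Figure D4:**
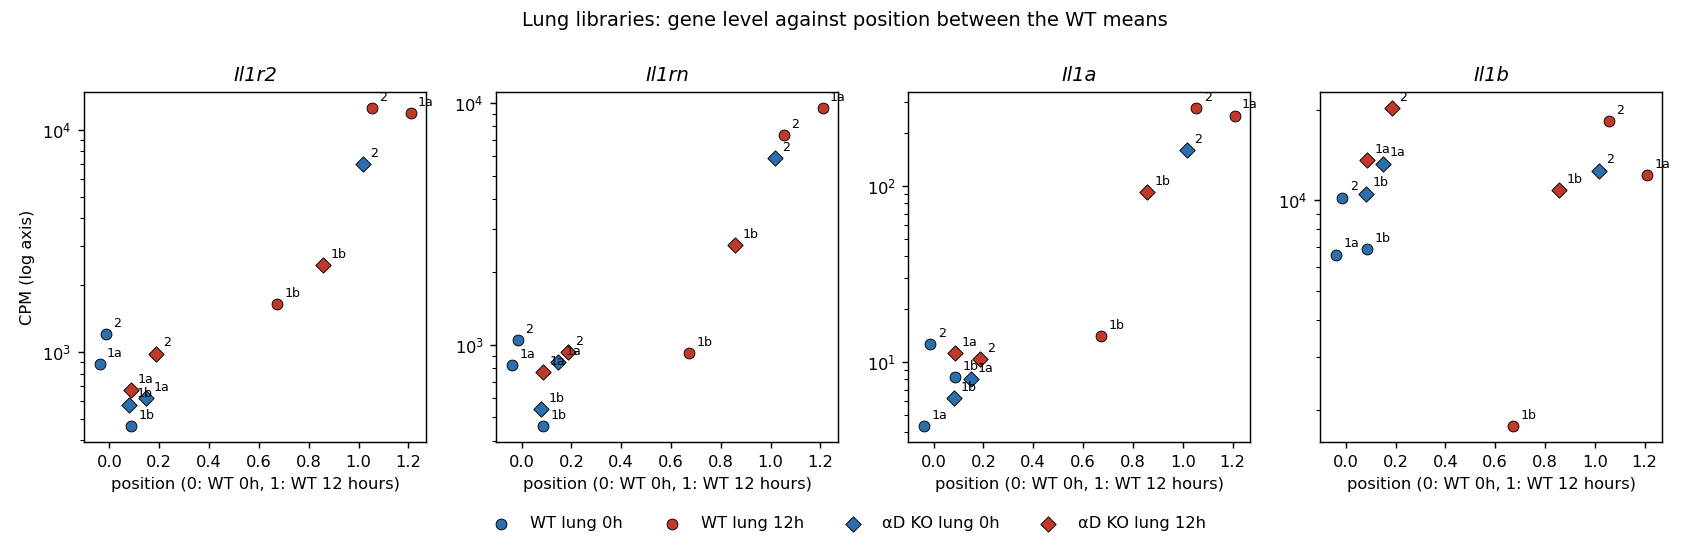
CPM (log axis) of Il1r2, Il1rn, Il1a and Il1b in the 12 lung libraries against the position of the library between the WT 0h mean (0) and the WT 12-hour mean (1) over 1338 other genes; circles are WT, diamonds αD KO, blue 0h, red 12 hours, and numbers name the library. The αD KO 0h library 2 and 12-hour library 1b lie at 1.02 and 0.86, where Il1a was 160 and 92.7 CPM, while Il1b shows no such order.

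Between genotype labels at the same time and tissue, none of the 8 genes was called by edgeR in any of the 4 comparisons, where 0.0115% of genes were called in blood at 0h and 0.0% in the other 3. In blood at the baseline none had an unadjusted p under 0.05 and DESeq2 called none. Il1r2 was 337 to 543 CPM in αD KO and 279 to 958 CPM in WT (-0.63 ± 0.45, adjusted p = 1.0). In lung at the baseline none had an unadjusted p under 0.05 and DESeq2 called none. Il1b was 10507 to 13243 CPM in αD KO against 6583 to 10191 CPM in WT, without overlap, the only 1 of the 8, where 7.58% of all genes did not overlap (0.60 ± 0.36, adjusted p = 0.983). Erythroid markers summed to 2153 to 3248 CPM in αD KO lung at 0h against 89.2 to 1070 CPM in WT, and B cell markers to 51.0 to 456 against 511 to 784 CPM. Neither list overlapped, none of its genes was called, and their part was not tested. Il1r2 was 1.64 ± 1.01 higher on the log2 scale, a value that became -0.56 without αD KO library 2. In blood at 12 hours Il1r1 was below the count filter and 1 of the other 7 genes, Il1b, had an unadjusted p under 0.05, at 1064 to 1688 CPM in αD KO and 325 to 1075.8 CPM in WT (1.08 ± 0.46, adjusted p = 0.962, DESeq2 0 called). Eosinophil markers were 6.72 to 12.95 CPM in αD KO against 24.04 to 26.5 CPM in WT there, and basophil and mast cell markers 13.4 to 15.8 against 9.14 to 12.6 CPM. Neither list overlapped, none of its genes was called, and their part was not tested. In lung at 12 hours 1 of 8, Il1r2, had an unadjusted p under 0.05, at 675 to 2462 CPM in αD KO and 1646 to 12575 CPM in WT (-2.60 ± 0.86, adjusted p = 0.598). DESeq2 called it (adjusted p = 0.0443), where it called 1.18% of all genes. Without the libraries 1b, 5 of 8 were lower in αD KO lung at 12 hours (Il1r2, Il1a, Il1rn, Il18rap and Il1rap), where 30.1% of all genes were called, and the 2 αD KO libraries left are those at 0.09 and 0.19 on the axis above. The change after CLP differed between labels in lung by -4.35 ± 1.46 for Il1r2, -5.11 ± 1.90 for Il1a, -3.70 ± 1.39 for Il1rn and -2.41 ± 1.05 for Il18rap on the log2 scale, each with an unadjusted p under 0.05 and none called (adjusted p = 0.410, 0.410, 0.410 and 0.455). DESeq2 called none of them and gave no adjusted p for Il1r2. Without αD KO 0h library 2 the values were -2.18 for Il1r2, -2.11 for Il1a, -1.91 for Il1rn and -1.24 for Il18rap.

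Between tissues, Il1b had a higher mean in every lung group than in any blood group. Ordered by mean CPM, the 4 lung groups of Il1b (14906, 12099.5, 10745 and 7875 CPM for αD KO 12 hours, αD KO 0h, WT 12 hours and WT 0h) came before the 4 blood groups. Neighbours within lung overlapped, and library 1b of WT lung at 12 hours (1767 CPM) was below all 6 baseline blood libraries, so the tissues were not separated library by library. Of neighbours in the order, WT lung 0h and αD KO blood 0h (4601 CPM) did not overlap, and neither did WT blood 0h (4575 CPM) and αD KO blood at 12 hours (1282 CPM). At 12 hours Il1b was 4.04 ± 0.87 higher in WT lung than in WT blood on the log2 scale (16.5-fold, adjusted p = 0.116) and 3.52 ± 0.49 higher in αD KO lung than in αD KO blood (11.5-fold, adjusted p = 0.0743). Neither passed edgeR, which called 0.0442% and 0.0548% of all genes in these comparisons, and both passed DESeq2 (adjusted p = 2.63e-06 and 9.57e-11), which called 6.99% and 6.48%. With DESeq2, Il18 was also higher in WT lung at 12 hours (4.43 to 9.71 CPM against 1.31 to 2.56 CPM in blood, DESeq2 adjusted p = 0.0287), where edgeR gave 1.77 ± 0.48 (adjusted p = 0.150). Il1r2 was lower in αD KO lung than in αD KO blood by DESeq2 (adjusted p = 0.0165), at 675 to 2462 CPM against 1774 to 10094 CPM (edgeR -2.17 ± 0.74, adjusted p = 0.157). Of these lung libraries, 1a and 2 lay at 0.09 and 0.19 on the axis above, away from their labelled time, and 1b, with 2462 CPM, at 0.86. Markers of lung structural cells moved with these comparisons. Their 23 genes summed to 201 to 572 CPM in WT lung against 79.8 to 93.2 CPM in WT blood at 12 hours, and to 121 to 325 CPM in αD KO lung against 28.9 to 146 CPM in αD KO blood. One of the 6 genes edgeR called in WT was on this list (Epas1), and 3 of the 8 in αD KO (Scgb1a1, Ramp2 and Sftpa1). In αD KO at 12 hours, monocyte and macrophage markers were 866 to 1202 CPM in lung against 555 to 745 CPM in blood, and eosinophil markers 14.7 to 91.8 against 6.72 to 12.95 CPM, both without overlap and with no marker called. The part of these in the result was not tested. In each of these 2 tissue comparisons 3 of 8 genes had an unadjusted p under 0.05 in edgeR and none was called. Libraries of the same number again shared part of their deviation in both, and in the blocked fit Il1a was called higher in WT lung at 12 hours (adjusted p = 0.0256, when 0.478% of all genes were called), while no gene of the 8 was called in αD KO (0.144%). Leaving out library 1b of WT lung at 12 hours gave 4 calls, when 20.2% of all genes were called, and leaving out library 1b of αD KO blood or of αD KO lung at 12 hours gave 1 and 2 calls, when 2.64% and 11.2% were.

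At the baseline, Il1a was 4.34 to 12.7 CPM in WT lung and 0.160 to 1.25 CPM in WT blood, without overlap (3.78 ± 0.95, adjusted p = 0.999, DESeq2 adjusted p = 0.0136). This was the 1 gene of the 8 with an unadjusted p under 0.05 in edgeR, which called none of all genes (0.0%), and DESeq2 called 0.247% of all genes. In αD KO at the baseline 4 genes had an unadjusted p under 0.05 in edgeR and none was called (0.0% of all genes), and DESeq2 called Il1b (1.37 ± 0.40 by edgeR, DESeq2 adjusted p = 0.0428), where it called 0.589% of all genes and gave no adjusted p for Il1a and Il1r2. At the baseline, lung structural markers were 287 to 1531 CPM in αD KO lung against 67.4 to 103 CPM in αD KO blood, and platelet markers 9.99 to 29.9 against 40.6 to 734 CPM. In WT, platelet markers were 17.98 to 43.3 CPM in lung against 72.3 to 157 CPM in blood, and eosinophil markers 80.3 to 124 against 43.6 to 70.2 CPM. None of these ranges overlapped, and their part in the result was not tested. The fall of Il1b after CLP in blood against its level in lung was tested as the interaction of tissue and time. It was 3.26 ± 1.12 in WT (adjusted p = 0.876) and 2.00 ± 0.69 in αD KO (adjusted p = 0.403) on the log2 scale, called by DESeq2 in both (adjusted p = 0.0403 and 0.0117) and by edgeR in neither (0.0% of all genes). In edgeR 2 genes in WT (Il1b and Il18) and 5 in αD KO (Il1b, Il1r2, Il1rap, Il18rap and Il1rn) had an unadjusted p under 0.05. DESeq2 also called the interaction of Il1r2 in αD KO (-5.29 ± 1.38 by edgeR, DESeq2 adjusted p = 0.0176), and it called 0.776% and 2.02% of all genes. By edgeR this value was -2.92 without αD KO lung 0h library 2, 1 of the αD KO lung libraries that did not lie with their labelled time. The comparisons share libraries with each other, so they are not independent.

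Among 13 other genes of the family, 6 or 7 were high enough to be tested in the 3 comparisons with calls. Il18r1, the partner of Il18rap, rose in all 3, from 6.03 to 23.1 CPM in WT blood (1.91 ± 0.46, adjusted p = 0.0340), from 7.96 to 21.2 CPM in αD KO blood (1.36 ± 0.33, adjusted p = 0.0429) and from 8.08 to 30.9 CPM in WT lung (1.93 ± 0.34, adjusted p = 0.0174). In WT blood 2 more rose, Sigirr, an inhibitory receptor of the family, from 0.610 to 6.29 CPM (3.25 ± 0.66, adjusted p = 0.0194), and Il18bp, the soluble binding protein that blocks interleukin-18, from 20.7 to 68.5 CPM, named after its values were seen (1.66 ± 0.43, adjusted p = 0.0421). These were 3 of 6 genes tested in WT blood, 1 of 6 in αD KO blood and 1 of 7 in WT lung, where 7.75%, 3.75% and 5.24% of all genes rose, and none of the list fell. Il1f9, which encodes interleukin-36γ and is named here after its values were seen, was the most abundant of the 13, at 86.1 to 1747 CPM over the 24 libraries, and was called in no comparison. The receptor of interleukin-33, Il1rl1, stood at 0.0522 to 10.7 CPM and Il33 at 0 to 1.90 CPM.

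Of 21 genes that carry the signal from the receptor, all were tested. In WT blood 2 rose and 1 fell (13.5% of all genes were called), in WT lung 2 rose and none fell (9.02%), and in αD KO blood 2 rose and none fell (8.75%), shares near those of all genes. The medians were 0.35, 0.41 and 0.24 on the log2 scale against -0.154, 0.0294 and -0.139 over all genes. Irak3, the inhibitory member of the IRAK kinases, rose from 98.9 to 1208 CPM in WT lung (3.58 ± 0.65, adjusted p = 0.0182) and from 90.3 to 746 CPM in αD KO blood (adjusted p = 0.00372). Map3k8, a kinase upstream of ERK, rose in WT blood (1.52 ± 0.37) and αD KO blood (1.86 ± 0.28), Peli2 rose in WT blood (1.69 ± 0.35) and WT lung (1.85 ± 0.31), and the ubiquitin ligase gene Peli1 fell in WT blood from 192 to 54.1 CPM (-1.89 ± 0.44, adjusted p = 0.0288).

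Genes that process the precursors moved both ways. Of 21, 19 were tested. In WT blood 3 rose and 5 fell (median -0.32), where 7.75% of all genes rose and 5.75% fell. In αD KO blood 2 rose and 6 fell (median -0.55), against 3.75% and 4.99%. In WT lung 1 rose and 1 fell (median 0.38), close to the 5.24% and 3.78% of all genes. Pycard, the inflammasome adaptor, rose in all 3, from 13.9 to 114 CPM in WT blood (2.97 ± 0.46, adjusted p = 0.00793), from 21.9 to 105 CPM in αD KO blood (2.22 ± 0.49, adjusted p = 0.0334) and from 6.91 to 95.2 CPM in WT lung (3.79 ± 0.53, adjusted p = 0.00852). Casp4, the sensor caspase for intracellular lipopolysaccharide, rose in WT blood (1.87 ± 0.42) and αD KO blood (1.62 ± 0.35). The inflammasome sensor genes Nlrp1a and Nlrp1b fell most in blood. Nlrp1a went from 31.4 to 1.46 CPM in WT blood (-4.48 ± 0.54, adjusted p = 0.00373) and to 0.854 CPM in αD KO blood (-5.05 ± 0.74, adjusted p = 0.00844), and Nlrp1b by -4.47 ± 1.07 and -5.31 ± 0.83, and by -4.36 ± 0.73 in WT lung. Nlrp3 was the only gene of this list called between tissues, higher in αD KO lung than in αD KO blood at 12 hours (217 against 21.3 CPM, 3.33 ± 0.37, adjusted p = 0.0299).

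A list of 18 genes known to be induced by interleukin-1 and NF-κB, most of which also respond to Toll-like receptor ligands and TNF, was counted in the same way. In WT blood 6 of 17 tested rose and 1 fell (median 1.54), where 7.75% of all genes rose. In αD KO blood 11 of 17 rose and 1 fell (median 2.13), against 3.75%, and in WT lung 9 of 18 rose and none fell (median 3.39), against 5.24%. Whether the lists differ from each other was not tested. Lcn2, a siderophore-binding protein, rose from 442 to 17935 CPM in WT blood (5.29 ± 0.51, adjusted p = 0.00205) and from 532 to 27363 CPM in WT lung (5.66 ± 0.63, adjusted p = 0.00492). Cxcl3, a chemokine that attracts neutrophils, rose from 3.67 to 102 CPM in WT blood (4.71 ± 0.84), from 3.65 to 182 CPM in αD KO blood (5.60 ± 0.94) and from 8.85 to 1639 CPM in WT lung (7.49 ± 1.28). Sod2, the mitochondrial superoxide dismutase, rose in αD KO blood from 28.3 to 406 CPM (3.79 ± 0.38, adjusted p = 0.0024). Ptgs2, the inducible cyclooxygenase, was the 1 gene of the list that fell in blood, from 801 to 19.9 CPM in WT (-5.39 ± 0.83, adjusted p = 0.00769) and from 758 to 30.1 CPM in αD KO (-4.68 ± 0.96, adjusted p = 0.027). In αD KO lung none of the 4 lists had a call between the labelled times.

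For each gene, the most similar patterns were sought over the 24 libraries, by the root mean square difference of log2(CPM + 1) after centring each gene, among 13919 genes with a mean of at least 1 CPM. For Il1b the nearest were Nlrp3 (difference 0.70, against 1.65 for Il1b from its own mean) and Rasip1 (0.72). For Il1a they were the chemokine genes Ccl3 (0.92, against 2.37) and Ccl4 (0.94). For Il1rn they were Batf (0.50, against 1.39) and Marcksl1 (0.52), and for Il1r2 Klhdc4 (0.40, against 1.71) and Wdr26 (0.60). Klhdc4 was thus the closest relative to the spread of the gene itself. Il18rap was nearest to Tet2 (0.35, against 0.94) and Sgms1 (0.37), Il1rap to Uhrf1bp1l (0.33, against 0.85) and 4932438A13Rik (0.34). Il18 (F830045P16Rik 0.35 and Phf1 0.37, against 0.67) and Il1r1 (Wdhd1 0.32 and Sccpdh 0.32, against 0.81) varied least on this scale, on which the added 1 compresses genes of a few CPM. As a ratio of the highest to the lowest library, Il1rap (8.90-fold) and Il18rap (9.71-fold) varied less than Il18 (18.9-fold). These are descriptions over libraries that share group and depth.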

How the data were processed

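RNA of sorted neutrophils was made into full-length cDNA (SMART-Seq v4) and Nextera XT libraries. Per the labels and the study's methods, the authors trimmed reads with Trimmomatic 0.36, aligned them to GRCm38 (mm10) with STAR 2.5.2b and deposited whole-number counts of unique reads in exons for each gene, not normalized. The counter, its strand setting and the annotation release are not given in the sources used here. Reads of a gene and of a gene that overlaps it cannot be told apart: genes that overlap Il1r2 (Gm16894, Gm37347) had 53531 counts over the 24 libraries, and the antisense gene Il1bos of Il1b 13218. Symbols were matched for 48970 of 49315 identifiers, and exon lengths were those deposited with the counts. Gene positions were the same in GENCODE M21 for 44734 genes.

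Each of the 24 files was treated as a library. The 2 files of each sample 1 were far further apart than counting error allows. The main test was edgeR 4.0.16 (quasi-likelihood F test, TMM, filterByExpr) on the libraries of the groups compared (R 4.3.3), with Benjamini-Hochberg adjustment over all genes tested and calls at adjusted p under 0.05 and absolute log2 fold change over 1. There were 12 comparisons of 2 groups and 4 interactions. Ratios were tested by exact permutation. Alternatives were DESeq2 1.42.0, RLE scaling, no count filter, all 8 groups in the fit, the files of sample 1 summed, the library number as a block, libraries 1b left out, and each library left out in turn. The tests were checked on simulated counts.

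Sample numbers 1 and 2 come from the labels. All 3 correlations of same-numbered deviations were over 0.1 in the change after CLP in WT blood (0.457, 0.588 and 0.114) and αD KO lung, between genotypes in baseline blood, and between tissues at 12 hours. For these comparisons the fit with the library number as a block was also read, while the main test had no block. Mice of different genotype or time are different animals, so there a shared number does not pair mice.

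The 8 genes, the pathway lists and the marker lists were chosen with earlier results of these data known. Genes named are the 8, at most 2 rising and 2 falling most among called genes of each pathway list and comparison, the 2 nearest patterns of each gene, the leading genes of marker lists, and Itgad, Ly6g, Itgam and S100a8 as checks. Il1f9, Il1rl1, Il33, Il18bp and the markers Prg2, Epas1, Scgb1a1, Ramp2 and Sftpa1 fall outside this rule and were named after their values were seen. Precision is limited by depth (5753476 to 29984954 counts per library) and by 3 libraries per group. The exact limit given for a count of 0 uses 3 counts.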

Additional observations from a re-analysis of the deposited data

How the results depend on the processing

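The number of the 8 genes called depended on the libraries kept, the count filter, the groups in the fit and the tool. In WT blood (5 called, 13.5% of all genes) it was 1 without a count filter (2.25%) and 1 with all 8 groups in the fit (4.12%). With the files of sample 1 summed it stayed at 5 (15.9%). In WT lung (2, 9.02%) it was 1 without the filter (3.15%), 0 with all 8 groups (1.65%), 4 with the files of sample 1 summed (12.3%), 1 with the replicate block (6.01%) and 4 without libraries 1b (37.2%). In αD KO blood (3, 8.75%) it was 5 without the filter (4.05%), 5 by DESeq2 (16.5%), 0 with all 8 groups (0.236%) and 5 without libraries 1b (11%). With the files of sample 1 summed it was 4 (3.84%). For comparisons with 0 calls, the filter left out gave 1 in αD KO against WT blood at 12 hours (0.207% of all genes), 2 and 3 in lung against blood at 12 hours (1.59% in WT and 3.13% in αD KO), and 1 in αD KO lung against blood at 0h (0.144%). DESeq2 gave 1 in αD KO against WT lung at 12 hours (1.18%). In lung against blood at 0h and 12 hours it gave 1 and 2 in WT (0.247% and 6.99%) and 1 and 2 in αD KO (0.589% and 6.48%). In the tissue by time interactions it gave 1 in WT (0.776%) and 2 in αD KO (2.02%). Summed files gave 1 and 3 (4.47% and 8.27%), and the replicate block 1 and 0 (0.478% and 0.144%), in lung against blood at 12 hours. Without libraries 1b there were 5 in αD KO against WT lung at 12 hours, 6 and 5 in lung against blood at 12 hours, 3 in genotype by time in lung and 1 in tissue by time in WT, when 30.1%, 28.2% and 34.3%, 13.2% and 7.41% of all genes were called. RLE scaling moved none of the 16 counts. The causes were not tested.

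With each library left out in turn, calls ranged from 0 to 6 in WT blood, 0 to 4 in WT lung and 0 to 5 in αD KO blood. The shares of all genes called then ranged from 0.00999% to 18.4%, 0.0% to 25.3% and 0.456% to 8.74%. In lung against blood at 12 hours calls ranged from 0 to 4 in WT (0.0% to 20.2% of all genes) and 0 to 2 in αD KO (0.0% to 11.2%). They stayed at 0 in the other 11 results (0.0% to 1.11%). The Il1rn to Il1b difference in blood ranged from 3.11 to 3.89, and in lung from 0.67 to 1.55. That of Il1r2 to Il1r1 ranged from 2.53 to 5.21 in blood and from 0.71 to 2.14 in lung. With the files of sample 1 summed or libraries 1b left out, the blood Il1rn to Il1b difference was 3.67 and 4.0 (exact permutation adjusted p = 0.111 and 0.222), with 36 arrangements, too few to pass.

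Sign changes under these alternatives were counted for a chosen part of the fold changes of the 8 genes, with none of Il1r1. In that part, 8 values changed sign, all of changes that were not called. The genes of the pathway lists were not included. In WT lung Il1b was -0.02 with the replicate block and ranged from -0.36 (without 12-hour library 2) to 0.80 with a library left out. In αD KO lung Il1b ranged from -0.03 (without 12-hour library 2) to 0.57, Il1a from -2.43 to 2.35 (0.37 with the replicate block), Il1rn from -1.51 to 1.04 and Il1r2 from -1.72 to 1.21, the last 3 highest without 0h library 2. Il1r2 of αD KO against WT lung at 0h ranged from -0.56 (without αD KO library 2) to 2.19. In the comparisons whose same-numbered libraries shared their deviations, the block changed no other call than those given above.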
